A study of Homo sapiens with 12 samples.

Results

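The zinc finger genes of chromosome 19 were followed in HEK293 cells, an embryonic kidney-derived line, through stimulation with epidermal growth factor (EGF), with and without cordycepin, in the presence and absence of AMPK. A gene was a member if it was an annotated protein-coding gene of chromosome 19 with a symbol of ZNF followed by digits, and if its RPKM (reads scaled to exon length and library size) averaged at least 0.5 over the 12 libraries. Of 249 such genes in the annotation, 229 were in the table of 26058 genes and 210 were members. The other 19 fell under the threshold, and 20 were not analysed here. The members were thus chosen by their mean level, which is given as a description only. All 210 stayed at or above 0.5 when their highest group was left out, but 2 passed the threshold through 1 line alone: ZNF738 averaged 0.298 RPKM in WT and ZNF486 0.346 RPKM in AMPK KO libraries. A gene that passed in this way had to differ between the lines.

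Stranded, ribosomal RNA-depleted libraries had been made from wild-type (WT) cells and from AMPK knockout (KO) cells, in which both catalytic subunit genes, PRKAA1 and PRKAA2, had been disrupted with CRISPR. After serum starvation for 24 h the cells received DMSO alone (WT DMSO and AMPK KO DMSO), DMSO for 20 min before 30 min of EGF (WT DMSO+EGF and AMPK KO DMSO+EGF), or 25 µM cordycepin, the adenosine analogue 3′-deoxyadenosine, for 20 min before 30 min of EGF (WT cordycepin+EGF and AMPK KO cordycepin+EGF), with 2 libraries in each of the 6 groups, numbered 2 and 3. The EGF dose is not printed because its unit differs between the labels and the design text. One WT line was set against 1 knockout line, so the knockout and any other difference between these lines cannot be told apart, and the labels do not say whether replicates were separate cultures.

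Most genes of this family encode KRAB zinc finger proteins. An array of C2H2 fingers reads DNA, and the KRAB box recruits TRIM28 (KAP1), which in turn brings SETDB1, the enzyme that writes H3K9me3, together with HP1 proteins and histone deacetylases. Many of the proteins silence transposable elements, and the genes themselves lie in clusters along chromosome 19 that grew by tandem duplication.

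Sequencing depth was uneven. WT DMSO replicate 3 was the shallowest library, with 4013039 reads on listed genes as recovered from the RPKM steps. The deepest, WT cordycepin+EGF replicate 2, had 26475402, and the members together held 32501 to 217719 reads. Replicates of WT DMSO also differed most over the members, with a correlation of log2 values of 0.918 and a median absolute difference of 0.28, against correlations of 0.968 to 0.988 and differences of 0.11 to 0.19 in the other 5 groups. PRKAA1 had a median of 16.4 RPKM (11.2 to 21.9) in WT and 7.55 (7.03 to 8.51) in AMPK KO libraries, and fell by 0.96 ± 0.10 (log2, SE; limma adjusted p = 0.00201). PRKAA2 had a log2 difference of -0.48 ± 0.12 that missed the threshold (limma adjusted p = 0.0547). VIM, LIN28B, PAX2 and NEFM had been listed as markers of HEK293 cells. Of these, VIM (49.1 to 82.3 RPKM) and LIN28B (13.2 to 25.8 RPKM) were present throughout. PAX2 and NEFM stayed under 1 RPKM, at most 0.851 and 0.342, so not all listed markers were clearly expressed. PTPRC, a blood cell marker, reached at most 0.061 RPKM, and CD3E, DCN, COL1A2 and ALB were not analysed here.

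Most members were expressed at low to middling levels. Their mean RPKM ranged from 0.554 to 61.8 with a median of 4.45, against 3.63 over the 22067 genes tested and 6.003 over the protein-coding genes among them. There were 35 members under 2 RPKM, 144 from 2 to 10 and 31 at 10 or more. ZNF146 (61.8 RPKM), a protein of zinc fingers without a KRAB box, was highest. It was followed by ZNF121 (44.8), ZNF428 (33.6), ZNF460 (32.4) and ZNF850 (30.9). Just inside the threshold lay ZNF846 (0.554), ZNF709 (0.639) and ZNF682 (0.741). Just outside it lay ZNF599 (0.464), ZNF257 (0.447) and ZNF93 (0.431), the last known for repressing LINE-1 elements.

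The members shared features that the rule had not used. A KRAB-like stretch was found in the canonical protein of 173 members and not in 37, and the number of C2H2 fingers had a median of 12 and ran from 1 in ZNF428 to 31 in ZNF91, which represses SVA elements. The stretch was searched with a short sequence pattern, so a KRAB box that departs from the pattern would be counted as absent. The 37 may therefore include KRAB genes. Members with a KRAB-like stretch had a median transcript GC content of 42.0%, and those without one 60.2%. The median over all genes tested was 47.6% and over the other 766 protein-coding genes of chromosome 19 it was 61.0%. Shared sequence may limit the assignment of reads for some, which was not tested. In all, 17 members shared over 20% of their exonic 75-base words with other annotated genes, and 86 shared none. The sharing genes were close copies for some of the 17 and overlapping annotations of the same locus for others. Exons of another gene on the same strand overlapped 78 members.

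Gaps of 500 kb or more between neighbouring annotated zinc finger genes split the chromosome into 10 position groups of at least 5 genes, numbered from the p end, which held 198 members. A further 12 members were isolated. Position group 10 (GRCh38, chr19:57191500-58481230) held 42 members, group 8 (chr19:51571283-53580269) 33, group 6 (chr19:36182276-37817300) 26, group 4 (chr19:19668796-24129968) 24 and group 7 (chr19:43525497-44500524) 23. Group 3 (chr19:11483427-12640098) held 16, group 9 (chr19:55476617-56671783) 15, group 2 (chr19:8509678-9793180) 11, and groups 1 (chr19:2819868-2944971) and 5 (chr19:34677639-34964229) 4 each. All annotated genes of groups 6 and 7 were members, 26 of 26 and 23 of 23, against 24 of 37 in group 4. The highest member of each group was ZNF77 (3.75 RPKM), ZNF121 (44.8), ZNF791 (10.3), ZNF714 (9.21), ZNF302 (12.5), ZNF146 (61.8), ZNF428 (33.6), ZNF480 (11.4), ZNF787 (9.76) and ZNF460 (32.4) in groups 1 to 10, and ZNF507 (29.0) among the isolated genes. Groups 4 and 9 had the lowest and highest median GC content, 36.8% and 64.8%, and 21 of 24 and 6 of 15 members had a KRAB-like stretch.

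Promoters of the members are shown for 7 genes that differed between the lines, since these are the genes past the test below that have a promoter entry. RefSeq promoter sequences (GRCh38.p14; 250 bases before to 50 after the start) matched 189 members. Capitals mark the CCAAT box (CCAAT), an ETS site (CCGGAAG) or a cyclic AMP response element (TGACGTCA), searched on both strands, none of which contains another. The first 4 belong to genes lower in AMPK KO cells and the last 3 to genes higher in them.
ZNF486: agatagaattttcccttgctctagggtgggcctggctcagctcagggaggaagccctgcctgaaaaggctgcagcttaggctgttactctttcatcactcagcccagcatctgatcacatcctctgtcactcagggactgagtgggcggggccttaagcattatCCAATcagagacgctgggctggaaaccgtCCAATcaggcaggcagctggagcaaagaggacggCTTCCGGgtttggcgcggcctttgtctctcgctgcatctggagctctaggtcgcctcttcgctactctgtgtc
ZNF85: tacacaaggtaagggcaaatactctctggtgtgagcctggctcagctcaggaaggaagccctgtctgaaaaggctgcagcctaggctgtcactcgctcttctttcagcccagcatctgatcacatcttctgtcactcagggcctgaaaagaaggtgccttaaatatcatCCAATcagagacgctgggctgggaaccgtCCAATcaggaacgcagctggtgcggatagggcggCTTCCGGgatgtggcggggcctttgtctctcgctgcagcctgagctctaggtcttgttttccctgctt
ZNF426: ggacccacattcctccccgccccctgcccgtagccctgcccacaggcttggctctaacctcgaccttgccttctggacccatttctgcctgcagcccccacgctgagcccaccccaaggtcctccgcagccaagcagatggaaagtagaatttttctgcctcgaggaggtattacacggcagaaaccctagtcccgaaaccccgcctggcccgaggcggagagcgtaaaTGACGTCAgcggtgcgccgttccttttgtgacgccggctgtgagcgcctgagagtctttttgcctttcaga
ZNF880: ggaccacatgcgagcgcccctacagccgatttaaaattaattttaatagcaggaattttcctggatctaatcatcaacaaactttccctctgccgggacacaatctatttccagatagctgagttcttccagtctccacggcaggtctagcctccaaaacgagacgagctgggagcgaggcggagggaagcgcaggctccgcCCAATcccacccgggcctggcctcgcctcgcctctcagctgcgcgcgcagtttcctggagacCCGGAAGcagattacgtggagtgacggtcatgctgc
ZNF83: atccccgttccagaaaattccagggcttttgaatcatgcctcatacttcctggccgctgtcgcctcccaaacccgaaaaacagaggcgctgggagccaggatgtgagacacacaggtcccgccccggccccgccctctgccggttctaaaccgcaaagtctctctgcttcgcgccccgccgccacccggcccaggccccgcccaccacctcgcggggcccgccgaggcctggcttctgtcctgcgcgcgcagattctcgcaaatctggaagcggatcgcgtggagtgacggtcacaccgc
ZNF416: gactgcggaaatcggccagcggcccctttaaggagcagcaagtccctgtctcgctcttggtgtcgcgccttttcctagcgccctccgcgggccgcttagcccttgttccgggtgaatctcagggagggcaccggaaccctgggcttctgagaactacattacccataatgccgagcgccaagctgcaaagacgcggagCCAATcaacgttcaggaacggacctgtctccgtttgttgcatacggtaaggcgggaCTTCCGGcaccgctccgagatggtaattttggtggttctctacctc
ZNF791: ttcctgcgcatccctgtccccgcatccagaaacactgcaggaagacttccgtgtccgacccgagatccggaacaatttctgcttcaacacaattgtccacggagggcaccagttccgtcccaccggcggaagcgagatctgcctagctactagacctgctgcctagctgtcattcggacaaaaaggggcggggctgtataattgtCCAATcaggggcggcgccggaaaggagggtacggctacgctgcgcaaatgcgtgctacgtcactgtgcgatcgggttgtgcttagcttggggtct
In the same order, these were chr19:20166964-20167263 (plus strand), chr19:20923001-20923300 (plus), chr19:9538596-9538895 (minus), chr19:52369673-52369972 (plus), chr19:52690447-52690746 (minus), chr19:57578862-57579161 (minus) and chr19:12610670-12610969 (plus). The promoters of ZNF486 and ZNF85, both of position group 4, were 79.1% identical and each held 2 CCAAT boxes and 1 ETS site. The other 20 of 21 pairs were 46.5% to 54.5% identical. Promoters of other members, those of position group 4 included, were not aligned. The ETS site was in 87 of 189 member promoters (46.0%), against 14.4% of all protein-coding and 10.7% of all promoters. The CCAAT box was in 95 (50.3%), against 36.6% and 35.7%, and the cyclic AMP response element in 7 (3.70%), against 2.64% and 1.98%. For AMPK KO against WT the median log2 fold change was 0.11 in the 87 members with the ETS site and 0.09 in the 102 without it, and for EGF in WT cells it was -0.09 and -0.04. A match describes the letters only.

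The first comparison asked how the lines differed. It set the 3 AMPK KO groups against the 3 WT groups with equal weight, in limma on log2(upper-quartile scaled RPKM + 0.5) over all 22067 genes, and fold changes below are on that scale. Of the 210 members, 10 passed an adjusted p of 0.05, 5 higher and 5 lower in AMPK KO cells. That is 4.76%, beside 4.34% of all genes tested and 5.81% of the protein-coding genes among them. Without ZNF738 and ZNF486, which are members through 1 line alone, it was 8 of 208 (3.85%). Of the 10, 9 had a KRAB-like stretch, the exception being ZNF83, beside 173 of all 210 members.

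ZNF738 had the largest higher value, but all its WT libraries lay under the 0.5 RPKM that defined members, so its difference is partly set by the choice of members. It had a median of 0.286 RPKM (0.196 to 0.454) in the 6 WT libraries and 1.5 (1.26 to 1.63) in the 6 AMPK KO libraries. The libraries of the lines did not overlap in any treatment. It rose by 1.30 ± 0.10 (log2, SE; limma adjusted p = 0.000477), on 13 to 89 reads in WT and 176 to 258 in AMPK KO libraries. It shared 25.5% of its 75-base words with other genes, among them an overlapping gene on its strand, ENSG00000213976, so its reads are uncertain. ZNF738 lies in position group 4 at chr19:21358930-21388582, and its neighbours ZNF708 (0.14 ± 0.08) and ZNF493 (0.28 ± 0.12) did not pass.

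ZNF486, at chr19:20167214-20200488 in the same group, had the lowest value and likewise passed the threshold through WT libraries alone. It had a median of 1.68 RPKM (1.41 to 3.37) in WT and 0.390 (0.0865 to 0.497) in AMPK KO libraries, with 58 to 235 reads against 7 to 35. The lines did not overlap, and WT DMSO replicate 3 (3.37 RPKM) was above the other 5 WT libraries (1.41 to 2.33). ZNF486 fell by 1.53 ± 0.17 (limma adjusted p = 0.0031). ZNF85 (chr19:20923222-20950697), also of that group, had a median of 3.18 RPKM (2.93 to 3.62) in WT and 1.87 (1.5 to 2.05) in AMPK KO libraries. Again no library of one line reached the range of the other, and ZNF85 fell by 0.68 ± 0.10 (limma adjusted p = 0.00886). ZNF66, the member between these genes, had a difference of the other sign, 0.30 ± 0.11, which did not pass (limma adjusted p = 0.178).

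ZNF880 and ZNF426 were lower too. ZNF880 (chr19:52369917-52385795, position group 8) had a median of 3.26 RPKM (2.26 to 4.01) in WT and 1.19 (0.972 to 1.69) in AMPK KO libraries and fell by 1.06 ± 0.11 (limma adjusted p = 0.00248). ZNF426 (chr19:9523223-9538645, position group 2), whose promoter above holds a cyclic AMP response element, had 4.82 RPKM (4.59 to 5.24) in WT and 2.81 (2.03 to 2.97) in AMPK KO libraries and fell by 0.75 ± 0.08 (limma adjusted p = 0.00247). In both genes the lines were fully separate, and they shared 0% and 2.32% of their words with other genes. ZNF28 (chr19:52797408-52857600, position group 8) fell by a smaller 0.40 ± 0.07 (limma adjusted p = 0.0158), from 4.98 RPKM (4.62 to 5.49) to 3.74 (3.22 to 4.01), and overlaps ZNF468 on its own strand.

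On the higher side, ZNF83 (chr19:52594060-52690559) lies in the same group as ZNF880 and ZNF28. It had a median of 5.25 RPKM (4.59 to 5.87) in WT and 8.24 (6.90 to 8.58) in AMPK KO libraries and rose by 0.58 ± 0.07 (limma adjusted p = 0.00453). An unnamed gene, ENSG00000269825, overlaps it on its strand. Position group 8 thus held both genes that rose and genes that fell, with ZNF611 between ZNF83 and ZNF28 at 0.19 ± 0.11 (limma adjusted p = 0.352). ZNF416 (chr19:57571566-57578911) and ZNF417 (chr19:57900296-57916610) of position group 10 rose by 0.33 ± 0.07 and 0.32 ± 0.06 (limma adjusted p = 0.0379 and 0.0178). ZNF416 had 5.06 RPKM (4.56 to 5.41) in WT and 6.42 (5.48 to 7.87) in AMPK KO libraries, and overlaps ZIK1 on the opposite strand. ZNF417, which with its near copy ZNF587 represses HERV-K elements, had 9.29 RPKM (8.55 to 10.9) in WT and 11.7 (10.9 to 13.4) in AMPK KO libraries. The lowest AMPK KO library lay just below the highest WT library. ZNF417 shared 29.3% of its words with other genes, among them ZNF587, which had a difference of 0.23 ± 0.12 (limma adjusted p = 0.314). ZNF791 (chr19:12610918-12633840, position group 3) rose by 0.30 ± 0.07 (limma adjusted p = 0.0381), with 9.01 RPKM (8.22 to 10.7) in WT and 12.3 (9.13 to 12.7) in AMPK KO libraries, and here the lines overlapped.

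**Figure D1:**
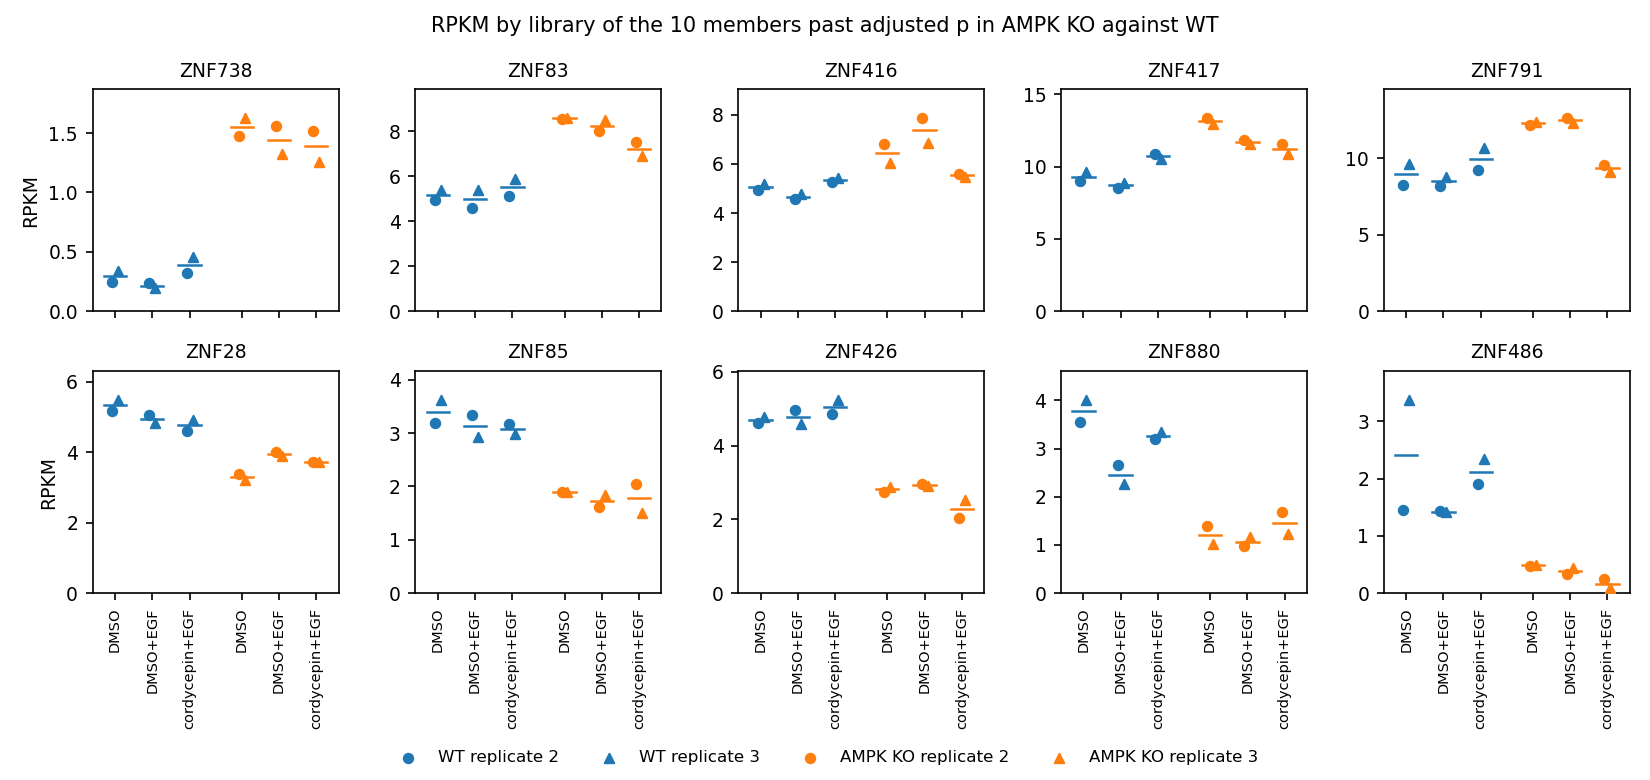
RPKM of the 10 members past an adjusted p of 0.05 in AMPK KO against WT, 1 panel per gene with its axis from 0, by treatment. Circles are replicate 2, triangles replicate 3, blue WT and orange AMPK KO, and bars the mean of 2 libraries. The colours separate fully for 8 of the 10 genes, and those of ZNF417 and ZNF791 overlap.

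Within treatments the values were as follows. For ZNF416, ZNF417 and ZNF791 the AMPK KO groups lay above WT by 0.30, 0.46 and 0.42 under DMSO and by 0.62, 0.42 and 0.54 under DMSO+EGF, but by 0.06, 0.09 and -0.06 under cordycepin+EGF. ZNF85 held at -0.72, -0.69 and -0.65, and ZNF738 at 1.36, 1.44 and 1.11. These are differences of means of 2 libraries, and the difference between the lines in the cordycepin response did not pass for any of the 10 genes (limma adjusted p of 0.124 or more).

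The count of calls moved with the libraries used. It was 37 without WT DMSO replicate 3, beside 13.1% of all genes in that fit. It was 6 without AMPK KO DMSO replicate 3 (beside 2.01%), without AMPK KO DMSO+EGF replicate 2 (1.59%) or 3 (1.38%), and without WT DMSO+EGF replicate 2 (1.67%) or 3 (1.89%). With voom on recovered reads it was 32, beside 10.5%, among them all 10. ZNF738, ZNF486, ZNF880, ZNF426, ZNF83 and ZNF85 passed in all 12 fits that left out 1 library. ZNF28 passed in 7, ZNF417 in 5 and ZNF416 and ZNF791 in 2 of the 12.

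Complete separation of the 6 AMPK KO from the 6 WT libraries was seen upward in 4 members (ZNF738, ZNF83, ZNF416 and ZNF175), beside 1.65% of all genes tested, and downward in 6 (ZNF486, ZNF880, ZNF426, ZNF85, ZNF28 and ZNF506), beside 1.01%, which come to 1.90% and 2.86% of the members. ZNF738 and ZNF486 are counted here, and as members through 1 line alone they had to differ between the lines. At an unadjusted p of 0.05, 37 members were higher and 16 lower, or 17.6% and 7.62%, beside 10.9% and 9.44% of all genes. Of the 220 zinc finger genes of other chromosomes, 36 were higher and 22 lower. Both directions together came to 25.2% of members, 26.4% of zinc finger genes of other chromosomes and 24.2% of protein-coding genes. At the study's own threshold (unadjusted p up to 0.05 and a log2 fold change of 1 or more in size) ZNF738 was higher and ZNF486 and ZNF880 lower, beside 0.48% of all genes in either direction. Of these, only ZNF880 is not a member through 1 line alone. Across all 210 members the median was 0.09, with 140 higher and 70 lower, beside medians of 0.00 over all genes tested, 0.05 over the other protein-coding genes of chromosome 19 and 0.02 over 220 zinc finger genes of other chromosomes. Of the 210, 8 lay beyond 0.5 in either direction.

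**Figure D2:**
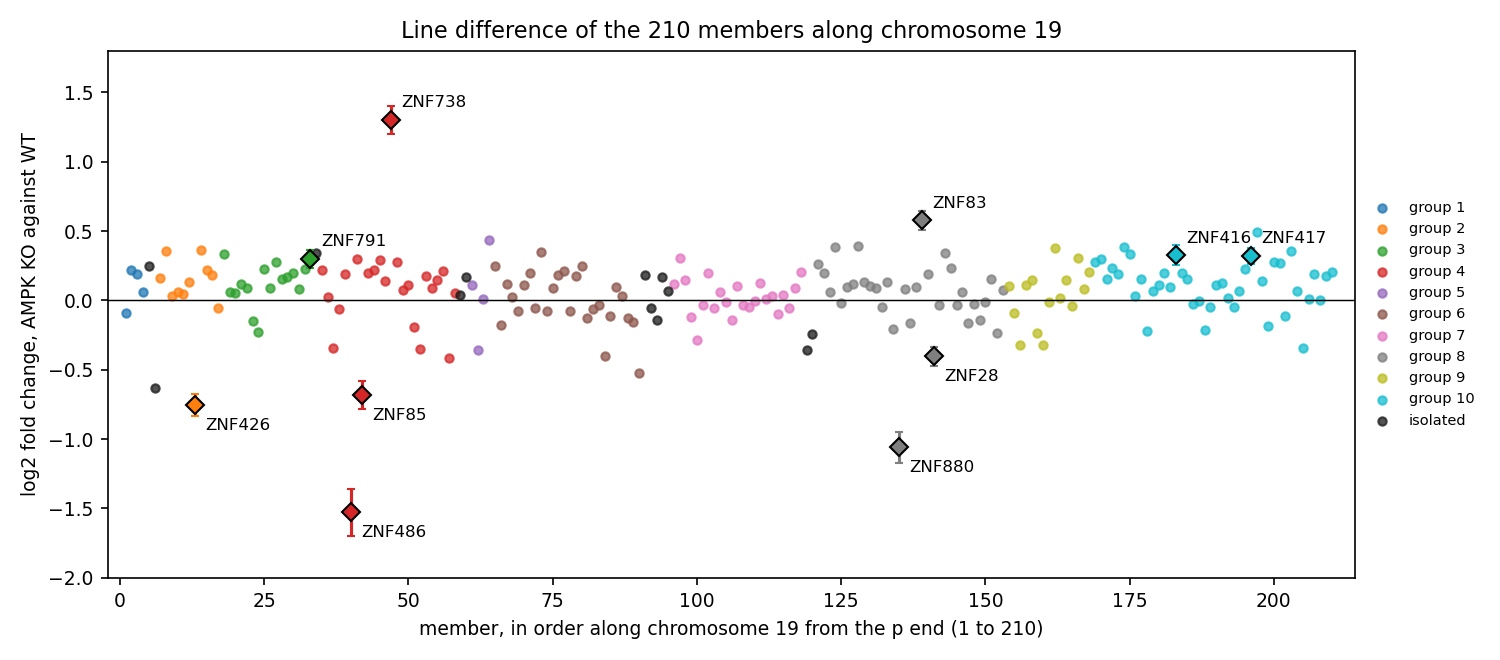
Log2 fold change of each of the 210 members, AMPK KO against WT (vertical axis), in order along chromosome 19 (horizontal axis), coloured by position group. Diamonds with SE bars are the 10 members past an adjusted p of 0.05, and they stand among neighbours that lie mostly between -0.5 and 0.5.

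By position, the line difference was highest in group 10, where 33 of 42 members were higher and the median was 0.15. Groups 1 to 4 followed with medians of 0.12, 0.13, 0.14 and 0.13. Groups 6 and 7 had medians of -0.01 and 0.01, with 13 of 26 and 12 of 23 higher. Over 188 pairs of adjacent members the correlation of the differences was 0.044, given as a description.

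Of the members listed for their known roles, ZNF417 alone passed between the lines. ZNF91 had 6.34 RPKM (5.32 to 7.11) in WT and 6.77 (6.16 to 7.31) in AMPK KO libraries, a difference of 0.09 ± 0.07. ZNF274, which binds the 3′ ends of zinc finger genes and recruits SETDB1 there, had 9.28 RPKM (7.33 to 11.2) and 12.6 (7.84 to 14.4), a difference of 0.27 ± 0.08 (limma adjusted p = 0.106). For ZNF611, which binds SVA elements, ZNF568, ZNF304, ZNF675, ZNF382, ZNF224 and ZNF146 the differences ran from -0.18 in ZNF146 to 0.21 in ZNF568, and that of ZNF224 (-0.03) changed sign in 3 of the 12 fits without 1 library.

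The second comparison asked how the members answered 30 min of EGF. In WT cells none of the 210 passed an adjusted p of 0.05, beside 0.0227% of all genes tested, and none did with voom on recovered reads. At an unadjusted p of 0.05 in limma 5 were higher and 9 lower, beside 6.18% and 3.53% of all genes. None passed the study's threshold, beside 1.54%. The members still leaned downward, with 142 of 210 lower and a median of -0.07, while the other protein-coding genes of chromosome 19 had a median of 0.18, with 596 of 766 higher. All genes tested had a median of 0.02. Members with a KRAB-like stretch had a median of -0.09 (126 of 173 lower), and those without one 0.05 (16 of 37 lower).

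The 5 members higher at an unadjusted p of 0.05, named after their values were seen, all lacked the KRAB-like stretch and had GC-rich transcripts: ZNF579, ZNF358, ZNF581, ZNF837 and ZNF580, at log2 differences of 0.75, 0.74, 0.59, 0.57 and 0.49. ZNF579 had 3.45 and 4.12 RPKM in WT DMSO and 6.60 and 6.99 in WT DMSO+EGF libraries. The pairs did not overlap, and the difference was 0.75 ± 0.16 (limma adjusted p = 0.417). In AMPK KO cells the same gene had 5.11 and 7.13 RPKM under DMSO and 4.20 and 4.76 under DMSO+EGF, a difference of -0.39 ± 0.16. The difference between the lines in its response was -1.13 ± 0.23, which did not pass (limma adjusted p = 0.569). ZNF880, one of the 9 lower members, had a difference of -0.56 ± 0.20 (limma adjusted p = 0.491). It had 3.55 and 4.01 RPKM in WT DMSO and 2.65 and 2.26 in WT DMSO+EGF libraries.

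In AMPK KO cells EGF also moved no member past an adjusted p of 0.05, beside 0.0136% of all genes, and voom called none. In limma 0 were higher and 1, ZNF579, lower at an unadjusted p of 0.05, beside 1.03% and 1.4%, and none passed the study's threshold, beside 0.594%. The median was -0.01, with 102 higher and 108 lower. The difference between the lines in the EGF response passed for 0 members, beside 0% of all genes and 0 with voom. At an unadjusted p of 0.05 in limma 5 were higher and 4 lower, beside 3.3% and 5.38%, and only ZNF579 passed the study's threshold, beside 2.53%. Here the median was 0.09, with 137 of 210 higher, beside -0.30 over the other protein-coding genes of chromosome 19. The comparison between the lines uses the libraries of both EGF comparisons.

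Transcript GC content moved with the EGF values. Over the 210 members Spearman's rho between GC content and the log2 fold change was 0.28 for WT and -0.28 for AMPK KO cells, and over the 22044 genes with a GC value it was 0.37 and -0.32. The 25 members of at least 55% GC, 4 of them with a KRAB-like stretch, had a median of 0.19 in WT cells, against -0.09 in the 185 others. In AMPK KO cells these medians were -0.13 and 0.01. The part of GC content in the EGF values was not tested. The EGF values in WT cells rest on the WT DMSO pair with the shallow replicate 3. Without replicate 2 of that group the WT median was -0.115 and 6 members passed an adjusted p of 0.05, beside 3.18% of all genes, in a fit where WT DMSO no longer added to the estimate of the spread.

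**Figure D3:**
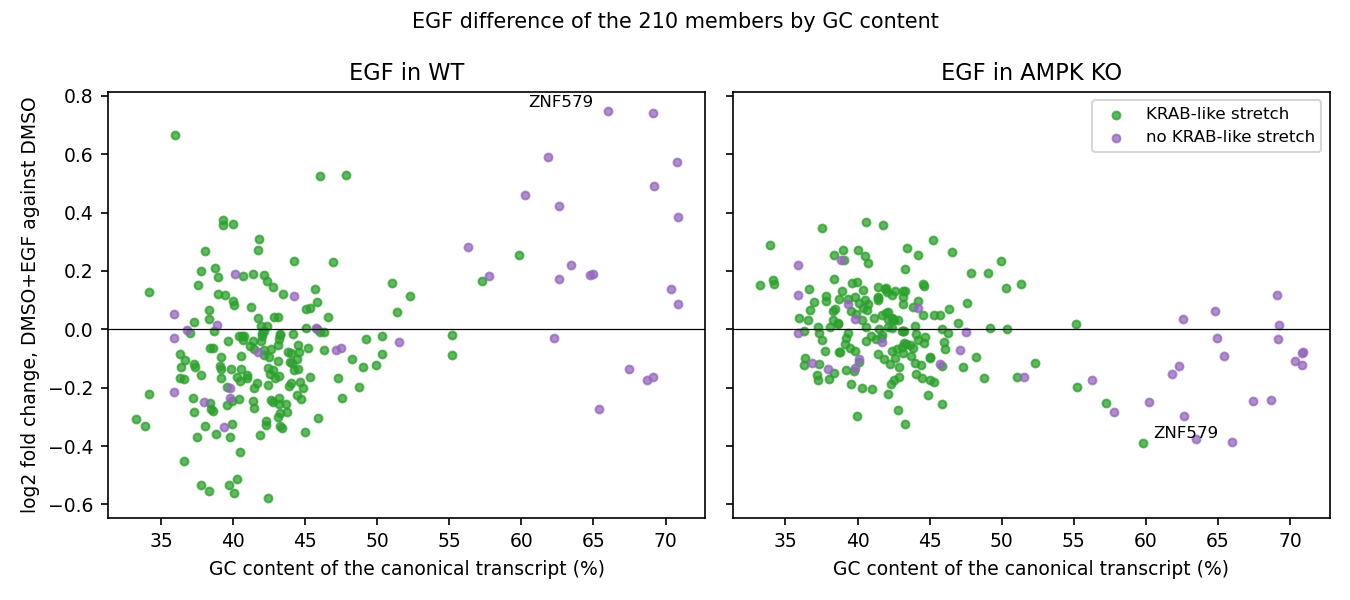
Log2 fold change of DMSO+EGF against DMSO (vertical axis) against the GC content in percent of the canonical transcript (horizontal axis) for the 210 members, WT on the left and AMPK KO on the right. The 25 members of at least 55% GC lie mostly above 0 on the left (median 0.19) and below 0 on the right (median -0.13).

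By position, group 8 had 31 of 33 members lower under EGF in WT cells with a median of -0.16, and group 4 had 21 of 24 lower with a median of -0.17. Group 9, with the highest GC content, had 8 of 15 higher and a median of 0.09, with 3 members higher at an unadjusted p of 0.05. In AMPK KO cells groups 8 and 4 had medians of 0.05 and -0.01. The correlation over 188 adjacent pairs was 0.289 for WT and 0.110 for AMPK KO cells.

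The third comparison asked what cordycepin did to the members in EGF-stimulated cells. In WT cells 0 members passed an adjusted p of 0.05 in limma, beside 0.00453% of all genes, and voom called 7, beside 2.86%. At an unadjusted p of 0.05, 26 were higher and 11 lower, beside 8.86% and 7.13%. The median was 0.13, with 136 of 210 higher, beside 0.03 over all genes tested and 0.14 over the other protein-coding genes of chromosome 19. At the study's threshold ZNF358 (-1.27 ± 0.32) and ZNF573 (-1.24 ± 0.39) were lower, beside 2.61% of all genes.

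In AMPK KO cells the lean was the other way. Again 0 members passed in limma, beside 0.471% of all genes, and voom called 6, beside 5.09%. At an unadjusted p of 0.05, 12 were higher and 32 lower, beside 11.7% and 10.1%, and the median was -0.06, with 130 of 210 lower. Over the 12822 protein-coding genes tested, 1310 were higher and 1941 lower at that level. In both directions together that was 25.4% of protein-coding genes, beside 21.0% of members, and the protein-coding median was -0.03. All genes tested had a median of 0.06 and zinc finger genes of other chromosomes -0.06. The 3 members nearest the threshold, named after their values were seen, were ZNF274 (-0.57 ± 0.14, limma adjusted p = 0.0853), ZNF850 (-0.90 ± 0.23, limma adjusted p = 0.0853) and ZNF304 (-0.55 ± 0.15, limma adjusted p = 0.0957), the last known for directing silencing of tumour suppressor genes. ZNF274 had 12.3 and 12.8 RPKM under DMSO+EGF and 8.24 and 7.84 under cordycepin+EGF, and did not overlap. At the study's threshold ZNF573 (1.22 ± 0.39) was higher and no other member passed, beside 3.36% of all genes. Without WT DMSO replicate 2 or 3, libraries that enter this comparison through the shared estimate of the spread alone, 10 members passed an adjusted p of 0.05, beside 6.16% and 6.12% of all genes. Dropping replicate 2 of AMPK KO cordycepin+EGF moved the median to -0.120, and dropping its replicate 3 moved it to -0.021.

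Placed side by side, the cordycepin values of the lines, which share no library, tended to opposite signs. There were 98 members higher in WT and lower in AMPK KO cells, 42 the reverse, 38 higher in both and 32 lower in both. The signs were opposite in 66.7% of members, beside 54.7% of all genes and 65.5% of zinc finger genes of other chromosomes. Pearson's r over the 210 members was -0.549 and Spearman's rho -0.446, as a description. Over all 22067 genes r was -0.028, and over 220 zinc finger genes of other chromosomes it was -0.551. With each of the 8 libraries left out in turn, r over the members was lowest at -0.710, when replicate 2 of AMPK KO cordycepin+EGF was dropped, and highest at -0.301, when its replicate 3 was dropped. The same omissions gave -0.197 and 0.120 over all genes, and -0.705 and -0.310 over the zinc finger genes of other chromosomes.

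**Figure D4:**
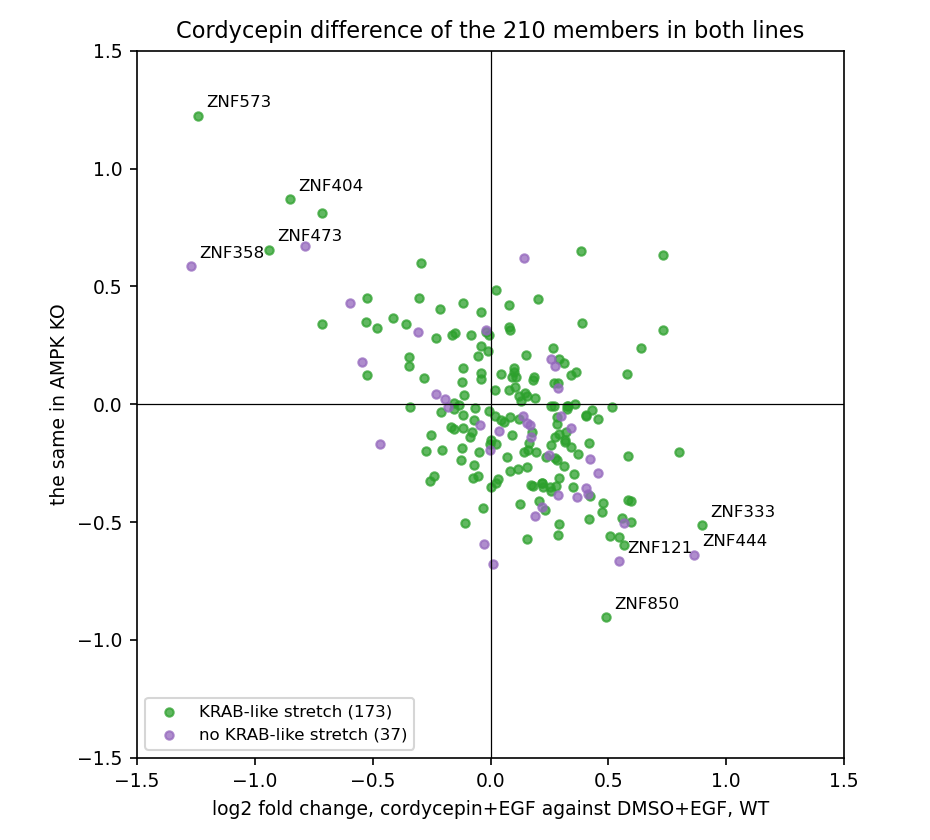
Log2 fold change of cordycepin+EGF against DMSO+EGF for the 210 members, WT on the horizontal and AMPK KO on the vertical axis, green with and purple without a KRAB-like stretch. The points spread from upper left to lower right, with 98 members in the lower right and 42 in the upper left quadrant. The 8 genes furthest apart between the lines among those past the study's threshold are labelled.

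The difference between the lines in the cordycepin response passed an adjusted p of 0.05 for 0 members in limma (lowest 0.122), beside 0% of all genes, and for 37 with voom, beside 9.57%. At an unadjusted p of 0.05, 18 were higher and 49 lower, beside 10.9% and 10.5% of all genes. At the study's threshold 8 were higher and 12 lower, beside 8.01% of all genes in either direction. The median was -0.18, with 139 of 210 lower. Without WT DMSO replicate 2 or 3, which this comparison does not contrast, 33 members passed, beside 9.06% and 9.09% of all genes, and 17 did when the 4 compared groups alone were fitted, beside 5.11%.

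The genes furthest apart are given by library. ZNF573 (19 fingers, position group 6) had 4.93 and 4.19 RPKM in WT DMSO+EGF and 1.58 and 1.57 in WT cordycepin+EGF libraries, but 1.33 and 1.28 in AMPK KO DMSO+EGF and 2.87 and 4.48 in AMPK KO cordycepin+EGF libraries. The pairs did not overlap in either line, and the responses differed by 2.47 ± 0.56 (limma adjusted p = 0.122). In unstimulated cells its WT DMSO libraries disagreed, at 5.86 and 1.85 RPKM, the shallow replicate 3 being the lower, and AMPK KO DMSO libraries had 1.25 and 1.41.

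ZNF404, ZNF473 and ZNF358 were likewise lower with cordycepin in WT and higher in AMPK KO libraries. ZNF473, known as ZFP100 of the histone pre-mRNA processing complex, had 5.94 and 5.69 RPKM in WT DMSO+EGF, 2.69 and 2.70 in WT cordycepin+EGF, 3.11 and 2.65 in AMPK KO DMSO+EGF and 3.47 and 6.19 in AMPK KO cordycepin+EGF libraries. The WT DMSO libraries again disagreed, at 6.53 and 2.12. The responses of ZNF404, ZNF473 and ZNF358 differed between the lines by 1.72 ± 0.53, 1.6 ± 0.57 and 1.86 ± 0.45, and none passed (limma adjusted p = 0.122 to 0.169). ZNF358 shared 21.4% of its words with other genes, among them an overlapping gene, ENSG00000267952.

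ZNF121, ZNF850, ZNF444 and ZNF333 ran the other way. ZNF850, with 29 fingers, had 20.4 and 22.9 RPKM in WT DMSO+EGF and 26.4 and 33.3 in WT cordycepin+EGF, then 38.8 and 42.2 in AMPK KO DMSO+EGF and 21.4 and 20.0 in AMPK KO cordycepin+EGF libraries. Its WT DMSO libraries had 20.4 and 36.8. ZNF121 had 29.1 and 36.1, 38.9 and 54.8, 54.7 and 56.9, and 33.3 and 34.4 RPKM in the same 4 groups. In both genes the pairs did not overlap in either line. The responses differed by -1.39 ± 0.32 in ZNF850, -1.21 ± 0.31 in ZNF121, -1.5 ± 0.42 in ZNF444 and -1.41 ± 0.45 in ZNF333, and none passed (limma adjusted p = 0.122 to 0.147).

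Over all members the libraries fell in a like order. The first principal component of the 210 members carried 50.5% of their variance. WT DMSO+EGF (0.43 and 0.35) and WT DMSO replicate 2 (0.46) lay at one end, AMPK KO DMSO (-0.34 and -0.37) and AMPK KO DMSO+EGF (-0.23 and -0.29) at the other. WT cordycepin+EGF (-0.05 and -0.15), AMPK KO cordycepin+EGF (0.03 and 0.24) and WT DMSO replicate 3 (-0.08) fell between. Over the 21857 other genes the first component carried 26.0%, and the libraries fell in a similar order, so it was not particular to the members. WT DMSO+EGF had 0.38 and 0.23, AMPK KO DMSO -0.27 and -0.40, and AMPK KO DMSO+EGF -0.21 and -0.26. AMPK KO cordycepin+EGF had 0.14 and 0.21, and WT cordycepin+EGF 0.08 and -0.24. The WT DMSO replicates were at 0.54 and -0.20. The WT DMSO replicates thus lay apart on this axis, and the part of that in the EGF and line results, beyond the values without each library, was not tested.

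By position, cordycepin medians had opposite signs in the lines in all 10 groups. Groups 2, 3, 4, 8 and 9 had 0.17, 0.21, 0.16, 0.17 and 0.29 in WT and -0.17, -0.09, -0.23, -0.10 and -0.15 in AMPK KO cells. Group 1 had 0.07 and -0.10, group 5 -0.08 and 0.11, and group 7 -0.07 and 0.12. Groups 6 and 10 had 0.01 and 0.20 in WT and each -0.01 in AMPK KO cells, close to 0. In group 4, 16 of 24 members were higher in WT and 17 of 24 lower in AMPK KO cells. Spearman's rho between mean level and the cordycepin values of the 210 members was -0.305 in AMPK KO and 0.01 in WT cells, as a description only. The mean level had chosen the members and includes the libraries compared here. The same correlation was not computed over all genes, so no difference between the lines is drawn from it.

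**Figure D5:**
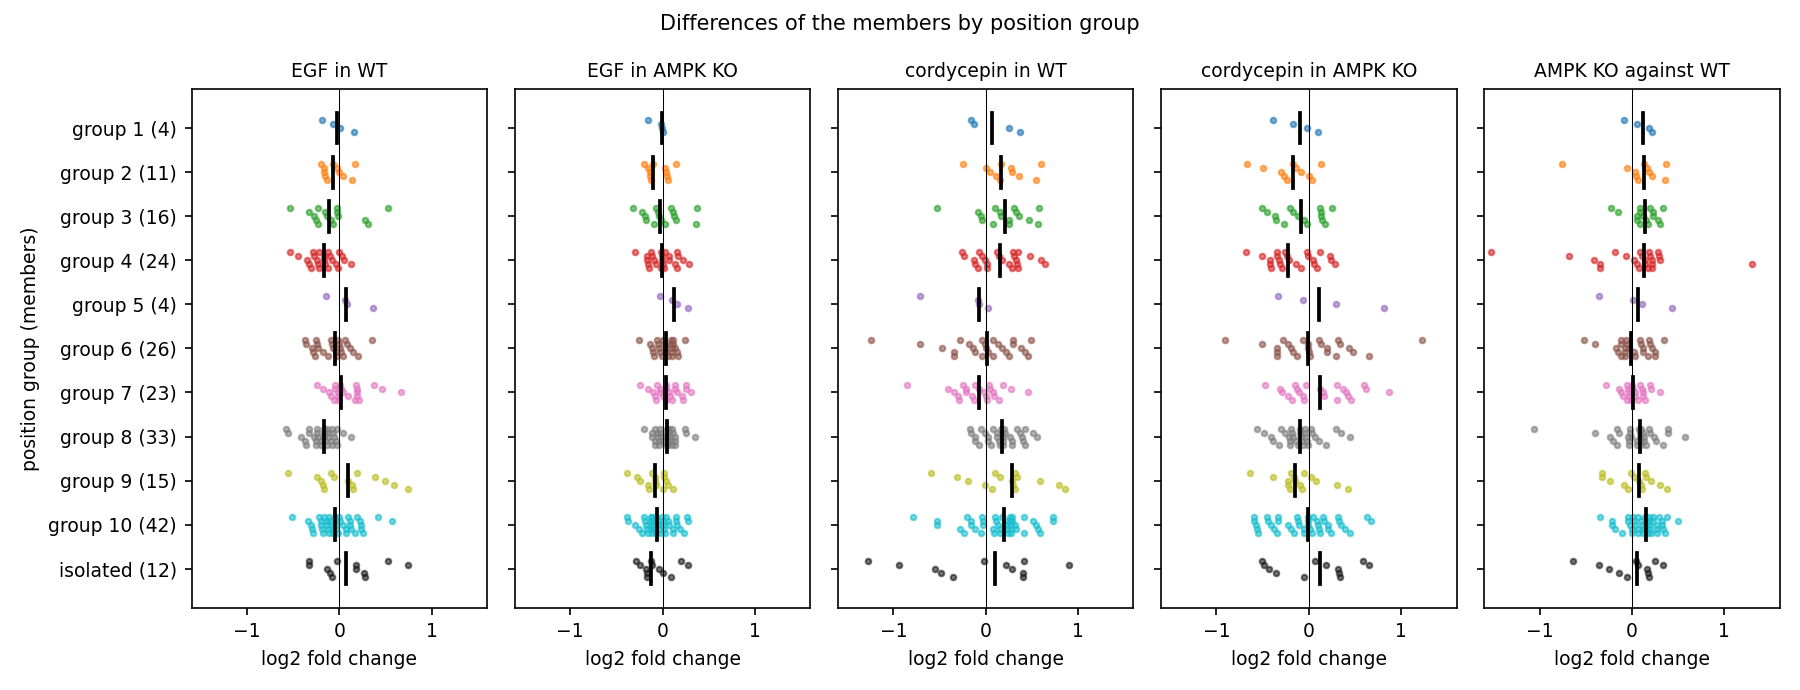
Log2 fold changes of the members by position group (rows, with the number of members) in 5 comparisons (panels). Points are members and black bars group medians. Under EGF in WT cells 31 of 33 members of group 8 lie to the left of 0, and under cordycepin the bars of groups 2, 3, 4, 8 and 9 lie right of 0 in WT and left of 0 in AMPK KO cells.

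The silencing machinery that KRAB zinc finger proteins use was listed as 16 genes. None passed an adjusted p of 0.05 in any of the 7 comparisons in limma. With voom on recovered reads CHD3 and MORC2 passed between the lines and ATF7IP passed for cordycepin in AMPK KO cells. TRIM28 had 69.5 to 117 RPKM over the 12 libraries, above every member on average. It had 85.9 and 79.5 RPKM in WT DMSO and 113 and 117 in WT DMSO+EGF libraries, a difference of 0.44 ± 0.17 (limma adjusted p = 0.497). The chromatin remodeller CHD4 had 0.46 ± 0.17, at a mean of 2.24 RPKM, the lowest of the 16 genes. The EGF responses of TRIM28 and CHD4 differed between the lines by -0.55 ± 0.24 and -0.64 ± 0.24, which did not pass (limma adjusted p = 0.57). Between the lines CHD3 (0.31), MPHOSPH8 (0.25), HDAC1 (0.22) and CBX5 (0.17) were higher and MORC2 (-0.33) lower at an unadjusted p of 0.05, 5 of 16, beside 20.4% of all genes. With cordycepin CBX1 (-0.53) and MORC2 (-0.42) in WT cells and ATF7IP (-0.41) and HDAC2 (-0.41) in AMPK KO cells were lower at that level, 2 of 16 each, beside 7.13% and 10.1% of all genes. SETDB1 lay between -0.12 and 0.11 in all 7 comparisons.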

How the data were processed

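RNA was sequenced from 12 HEK293 libraries, 2 in each of 6 groups, with 150-base paired reads on a NovaSeq. The authors aligned reads to GRCh38.p13 (hg38) with Rsubread and deposited RPKM values per gene, and they left out replicate 1 of each group as an outlier. The strand setting, annotation and tool versions are not given in the sources used here. Of 26058 genes, 26029 matched GENCODE release 44, and 2 rows that name no gene were left out. Values were divided by each library's upper quartile, and log2(RPKM + 0.5) of the 22067 genes averaging 0.5 RPKM or more was fitted with limma 3.58.1 (R 4.3.3; eBayes with trend, two-sided, 6 groups, Benjamini-Hochberg over all genes of a comparison). Of the 7 comparisons, the fit was tested on simulated data for EGF in WT alone. RPKM steps gave whole reads in all 12 libraries for 96.25% of genes (within 0.05 of a whole number), which served the depths and the voom alternative. With 2 libraries a group, p-values measure the spread between these libraries, which may be technical. Groups come from the labels.

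KRAB-like stretches, C2H2 fingers, GC content and shared 75-base words came from GENCODE canonical transcripts, and promoters from RefSeq (GRCh38.p14). Promoters were aligned globally (match 1, mismatch -1, gap -2). Members and gene lists were chosen with earlier results of these data known. Genes were named by these rules: up to 6 highest and 6 lowest past an adjusted p of 0.05, up to 4 of each past the study's threshold, the 5 highest levels, the highest of each position group, 3 on each side of the RPKM threshold, 12 genes with known roles, and both AMPK genes. Alternatives were other pseudocounts (0.1 and 1), filters, scalings and groups in the fit, a replicate block, eBayes without trend, voom and leaving out each library.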

Additional observations from a re-analysis of the deposited data

How the results depend on the processing

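No called result changed direction in any of the settings tried. With voom on recovered reads the members called numbered 32 for AMPK KO against WT, 7 for cordycepin in WT, 6 for cordycepin in AMPK KO and 37 for cordycepin by line, against 10, 0, 0 and 0, beside 10.5%, 2.86%, 5.09% and 9.57% of all genes. With the compared groups alone in the fit, 17 were called for cordycepin by line, beside 5.11% of all genes. With RPKM as deposited the median log2 fold change was 0.095 for cordycepin in WT and -0.108 for cordycepin in AMPK KO, and with median-ratio scaling the latter was -0.120. Leaving out 1 library at a time gave 6 to 37 calls for AMPK KO against WT, 0 to 6 for EGF in WT, 0 to 10 for cordycepin in AMPK KO and 0 to 33 for cordycepin by line, and at the highest of these 13.1%, 3.18%, 6.12% to 6.16% and 9.06% to 9.09% of all genes were called. The medians then ran from -0.115 to -0.056 for EGF in WT, -0.013 to 0.023 for EGF in AMPK KO, -0.120 to -0.021 for cordycepin in AMPK KO and -0.240 to -0.135 for cordycepin by line. Leaving out either WT DMSO library removes that group, the one with the widest spread, from the residuals, which lowers the pooled spread by construction. Of the 10 called members, ZNF791 alone lost its call in a fit on all libraries (eBayes without trend), and ZNF738 was not tested at the filter of 1 RPKM. Position groups numbered 12 with gaps of 250 kb and 9 with 1000 kb, against 10.

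The labels do not say what a replicate number marks. Correlations of deviations between same-numbered libraries ran from -0.122 to 0.322 over 15 pairs of groups and exceeded 0.1 in 7 of them, among these all 3 pairs of WT groups, so same-numbered libraries deviated together in some pairs of groups but not in all, and they were not treated as paired. With the replicate block, 10 members were called for AMPK KO against WT, all shared with the fit without it, and 0 in the other 6 comparisons. Depth limits WT DMSO replicate 3 most, where the median member had 104.5 reads and 4 members had under 10.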
